A study of Homo sapiens with 12 samples.

Results

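BNIP3, BNIP3L, FUNDC1, BCL2L13, FKBP8, PHB2 and PINK1 encode the mitophagy receptors of the BNIP3 class and the kinase that starts the parallel ubiquitin route. They were chosen by gene symbol, with earlier results of these data known. They are 7 of the 20263 genes measured in hypoxic U87, a long-established glioblastoma cell line of human origin. All 7 were among the 11731 genes that reached a TPM of 1 in 3 or more libraries, and all 7 were above 10 TPM in every library. TPM, the unit of the table, corrects read numbers for gene length and brings every library to the same total, so levels can be compared between genes within a library. Bulk mRNA was sequenced in 4 groups of 3 libraries: U87 cells with an empty vector (vector), cells with HIF1α knocked out (HIF1α-ko), with HIF2α knocked out (HIF2α-ko) and with both knocked out (HIF1α/2α-ko). Every group, vector included, was kept in 1% O2, for 72 h by the record of the experiment, whereas the study's methods give a shorter time for mRNA detection in general. For other assays the methods describe several days in 1% O2 with temozolomide, and the labels of these libraries name no drug. There were no normoxic libraries, so induction by hypoxia itself was not measured. How the knockouts were made and whether a group is 1 clone or a pool are not given in the sources used here.

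Mitophagy is the removal of mitochondria by autophagosomes. In the receptor route, a protein anchored in the mitochondrial membrane carries a short motif that binds the ATG8 proteins (LC3 and GABARAP) on the forming autophagosome. BNIP3 and its paralogue BNIP3L (also called NIX) sit in the outer membrane and are known targets of hypoxia-inducible factors. FUNDC1 is an outer-membrane receptor that is switched by phosphorylation, BCL2L13 and FKBP8 are outer-membrane receptors, and PHB2 (prohibitin 2) is an inner-membrane protein that becomes a receptor once the outer membrane is broken. PINK1 is not a receptor: it is a kinase that accumulates on damaged mitochondria and starts their labelling with ubiquitin. TPM measures mRNA only, and neither protein nor mitophagy was measured in these libraries.

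The targeted mRNAs were reduced, not absent. HIF1A was 38.6 to 57.3 TPM in HIF1α-ko and 67.8 to 89.2 TPM in HIF1α/2α-ko, against 110 to 151 TPM in vector and 76.1 to 108 TPM in HIF2α-ko. EPAS1, which encodes HIF2α, was 87.6 to 118 TPM in HIF2α-ko and 101 to 130 TPM in HIF1α/2α-ko, against 286 to 346 TPM in vector and 251 to 288 TPM in HIF1α-ko. HIF1A overlapped between HIF1α/2α-ko and HIF2α-ko (-0.19 on the log2 scale, adjusted p = 0.453 from limma), so its mRNA did not separate these groups. They are called by their labels, and neither HIF protein was measured in these libraries. By western blot, the paper reports more HIF2α protein after knockout of HIF1α, and more HIF1α protein after knockout of HIF2α. Replicate 1 stood apart in every group. Its Pearson's r across genes with the other libraries of its group was 0.966 and 0.968 in vector (0.989 between the others), 0.9755 and 0.977 in HIF1α/2α-ko (0.992), 0.982 and 0.983 in HIF1α-ko (0.991), and 0.985 with both in HIF2α-ko (0.992). The share of TPM from the 13 protein-coding genes of mitochondrial DNA was 3.17% in replicate 1 of vector and 0.517% and 0.836% in the other two. This share was also highest in replicate 1 of each knockout group, at 1.72%, 0.884% and 2.23%, and its part in the results was not tested. The mesenchymal markers VIM, CD44, FN1 and SPARC summed to between 6670 and 16810 TPM, and CDKN2A and CDKN2B, which are deleted in this line, were listed at 0 in all 12 libraries. Of the 6 astroglial or glioma markers, GFAP, S100B and SOX2 were under 1 TPM throughout, whereas OLIG2 was 0.884 to 19.2 TPM, NES 2.64 to 6.17 TPM and FABP7 3.004 to 6.99 TPM. The immune markers PTPRC and CD3E reached at most 0.0330 and 0.111 TPM.

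Changes are given as log2 fold changes of TPM + 1 with a 95% confidence interval, from a linear model of the 4 groups fitted with limma to all 11731 genes, and a gene was called at an adjusted p under 0.05. The 3 comparisons against vector share the vector libraries. The median change of all genes tested was -0.04 in HIF2α-ko, against 0.18 in HIF1α-ko and, with both factors knocked out, 0.21, so changes are also given relative to these medians. Nothing in the sources used here says that the replicates were separate cultures, so the p-values measure the spread between these libraries, which may be technical.

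BNIP3 (ENSG00000176171, GRCh38 chromosome 10, from 131966455 to 131982013, minus strand, protein-coding) had the largest changes of the 7. Its TPM was 645, 1123 and 1289 in vector, 982, 1036 and 1074 in HIF2α-ko, 63.1, 80.1 and 72.0 in HIF1α-ko, and 135, 139 and 136 in HIF1α/2α-ko, in the order of replicates 1 to 3. The HIF1α-ko and HIF1α/2α-ko libraries lay far below all vector libraries and did not overlap with each other, whereas the HIF2α-ko libraries lay within the vector range. The mean in HIF1α-ko was 7.04% of the mean in vector, a log2 fold change of -3.76 (95% interval -4.20 to -3.32, adjusted p = 1.97e-06 from limma), or -3.94 relative to all genes. This was the lowest log2 fold change of the 11731 genes tested. In HIF1α/2α-ko the mean was 13.4% of that in vector, a change of -2.83 (95% interval -3.27 to -2.39, adjusted p = 1.56e-06 from limma) or -3.04 relative to all genes, and 7 genes had a lower value. In HIF2α-ko the change was 0.07 (95% interval -0.36 to 0.51, adjusted p = 0.859 from limma). It was -0.22 without vector replicate 1, the lowest vector library for BNIP3. In a bulk sample, fewer cells that express a gene and less RNA in each cell cannot be told apart.

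The dual knockout did not have the lowest BNIP3 level. By the ratio of the mean TPM, HIF1α/2α-ko had 1.91-fold more BNIP3 than HIF1α-ko, a log2 fold change of 0.93 (95% interval 0.49 to 1.37, adjusted p = 0.00517 from limma) or 0.85 relative to all genes. Every HIF1α/2α-ko library, the lowest at 135 TPM, was above every HIF1α-ko library, the highest at 80.1 TPM. HIF1A mRNA was higher in the same comparison, with a log2 fold change of 0.64 (adjusted p = 0.0287 from limma), and its part in the BNIP3 difference was not tested. The interaction term asks whether the dual knockout differs from the sum of the changes in the knockouts of HIF1α and HIF2α alone. For BNIP3 it was 0.85 (95% interval 0.23 to 1.47, adjusted p = 0.0524 from limma) and was not called. It was 1.15 (adjusted p = 0.000377 from limma) without vector replicate 1. It was also called with the replicate number as a block (adjusted p = 0.0261) and with a filter at a mean TPM of 5 (adjusted p = 0.0495), at the same value of 0.85.

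The BNIP3 promoter is shown because hypoxia-inducible factors bind hypoxia response elements, whose core is ACGTG or GCGTG, and because BNIP3 mRNA was low in both groups labelled as HIF1α knockouts. The stretch is from RefSeq, GRCh38.p14, chr10:131982014-131982173, minus strand, written 5′ to 3′, and covers 250 to 91 bases before the RefSeq start, upstream of the gene as GENCODE 29 places it. The capitals mark the ACGTG core, which lies on both strands and overlaps itself.
BNIP3: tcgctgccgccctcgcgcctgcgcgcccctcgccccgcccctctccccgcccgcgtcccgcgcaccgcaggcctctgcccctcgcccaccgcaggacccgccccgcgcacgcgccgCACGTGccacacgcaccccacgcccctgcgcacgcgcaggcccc
In this 160-base stretch, 83.8% of the bases are G or C. The ACGTG core starts 133 bases before the RefSeq start on the strand of the gene and 134 bases before it on the other strand, and GCGTG was found 4 times on the other strand. Over all 35116 RefSeq windows of 300 bases (250 before to 50 after a start), 21.4% hold ACGTG and 36.5% hold GCGTG on either strand, so both cores are common. Windows were found for 4 of the 7 genes. Those of FUNDC1 and PHB2 held neither core, and 1 of the 3 windows of BCL2L13 held GCGTG, starting 17 bases before the start. A match describes the letters only, and binding was not measured in these libraries.

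BNIP3L (ENSG00000104765, GRCh38 chromosome 8, from 26382898 to 26505636, plus strand, protein-coding) followed the same direction on a smaller scale. Its TPM was 75.8, 72.3 and 104 in vector, 86.4, 59.7 and 63.5 in HIF2α-ko, 35.7, 49.8 and 45.5 in HIF1α-ko, and 52.3, 68.3 and 70.0 in HIF1α/2α-ko. All HIF1α-ko libraries were below all libraries of the other 3 groups. BNIP3L fell in HIF1α-ko to 52.0% of the vector mean, with a log2 fold change of -0.92 (95% interval -1.35 to -0.50, adjusted p = 0.00600 from limma), or -1.10 relative to all genes. The HIF1α/2α-ko libraries did not overlap with vector either, but the log2 fold change of -0.39 (95% interval -0.82 to 0.03) was not called at an adjusted p of 0.121 from limma. It was called after median ratio scaling (-0.62, adjusted p = 0.0192) and quantile normalization (-0.59, adjusted p = 0.0171). In HIF2α-ko the ranges overlapped, with -0.26 (95% interval -0.69 to 0.16, adjusted p = 0.425 from limma), and -0.49 without replicate 1 of every group (adjusted p = 0.0475).

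Set against HIF2α-ko, BNIP3L was lower in HIF1α-ko, at -0.66 on the log2 scale (adjusted p = 0.0293 from limma). That call was lost without HIF1α-ko replicate 1 (adjusted p = 0.0831) or 3 (0.0658) and without HIF2α-ko replicate 1 (0.119) or 3 (0.0508). HIF1α/2α-ko was above HIF1α-ko by 0.53 (95% interval 0.11 to 0.96, adjusted p = 0.0605 from limma), which was called when the knockout groups were fitted alone with the replicate number as a block (adjusted p = 0.0494). Its interaction term was 0.79 (95% interval 0.19 to 1.40, adjusted p = 0.0604 from limma), and was called without vector replicate 1 (0.86, adjusted p = 0.0466), without HIF2α-ko replicate 1 (0.96, adjusted p = 0.0348) and without HIF1α/2α-ko replicate 1 (0.93, adjusted p = 0.0346). On the opposite strand, exons of PNMA2 cover 7.66% of the BNIP3L exon bases, and whether counting used strand is not stated.

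The proportion of BNIP3 to BNIP3L differed between the groups. Within a library, the ratio of BNIP3 to BNIP3L TPM was 8.52 to 15.5 in vector and 11.4 to 17.4 in HIF2α-ko, but 1.58 to 1.77 in HIF1α-ko and 1.95 to 2.57 in HIF1α/2α-ko. The ranges of the 2 groups labelled as HIF1α knockouts did not overlap with those of vector and HIF2α-ko. Over the 12 libraries, log2(TPM + 1) of the pair had a Pearson's r of 0.757, a description of 4 groups rather than of independent points.

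**Figure D1:**
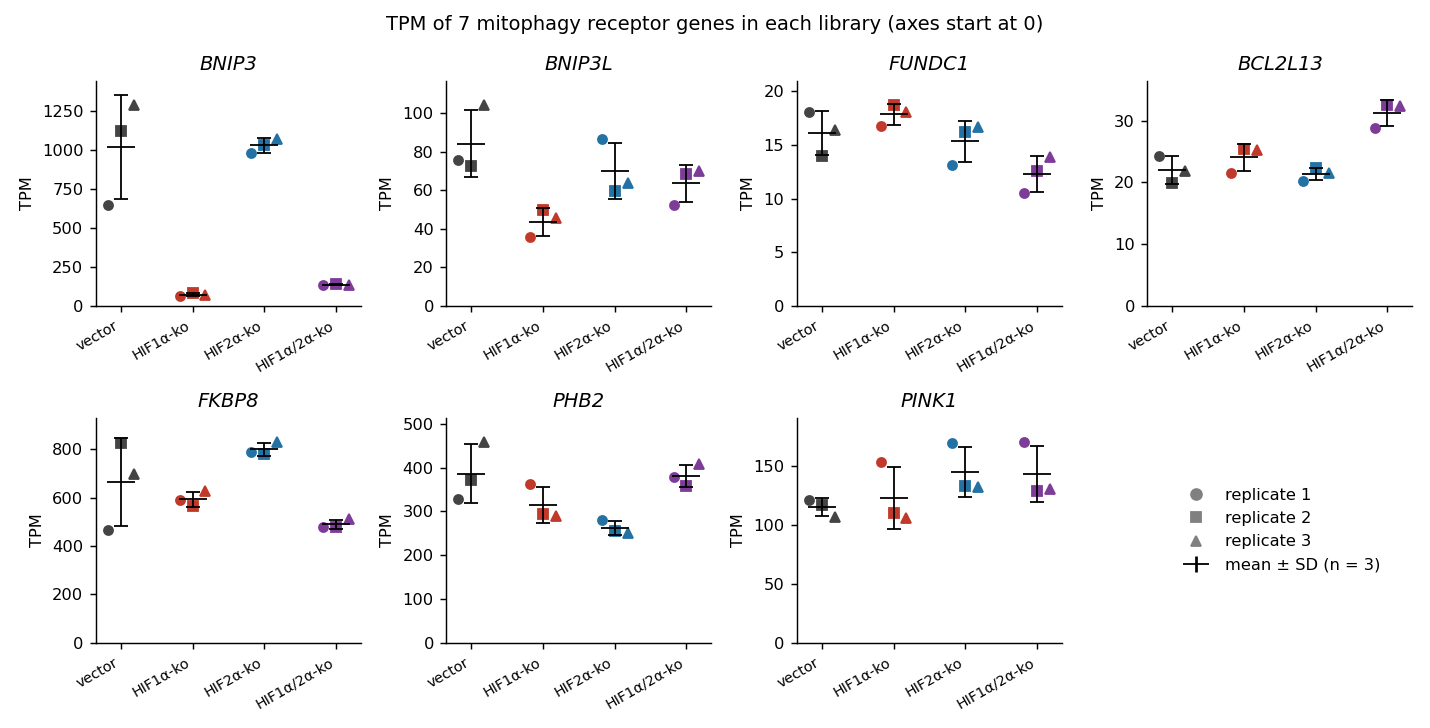
Each panel plots the TPM of 1 gene (vertical axis, from 0) in the 3 libraries of each group, with the marker giving the replicate number and the black bar the mean ± SD (n = 3). BNIP3 drops from a vector mean of 1019 to a HIF1α/2α-ko mean of 137 and a HIF1α-ko mean of 71.7, while the other genes move over a much smaller range.

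FUNDC1 (ENSG00000069509, GRCh38 chromosome X, from 44523639 to 44543001, minus strand, protein-coding) was the lowest of the 7 in every group. Its TPM was 18.05, 13.9 and 16.4 in vector, 13.1, 16.2 and 16.7 in HIF2α-ko, 16.7, 18.7 and 18.1 in HIF1α-ko, and 10.5, 12.5 and 13.8 in HIF1α/2α-ko. The HIF1α/2α-ko libraries were all below vector, by a narrow margin (13.8 against 13.9 TPM). The log2 fold change there was -0.37 (95% interval -0.71 to -0.03, adjusted p = 0.0724 from limma), and -0.57 relative to all genes. It was called after median ratio scaling (-0.58, adjusted p = 0.00177) and quantile normalization (-0.66, adjusted p = 0.000600). The changes were 0.14 (95% interval -0.20 to 0.48) in HIF1α-ko and -0.07 (95% interval -0.41 to 0.27) in HIF2α-ko, neither called. Set against HIF1α-ko, FUNDC1 was lower in HIF1α/2α-ko, at -0.51 on the log2 scale (95% interval -0.85 to -0.17, adjusted p = 0.0281 from limma). That call was lost without HIF1α-ko replicate 2 (adjusted p = 0.0857) or 3 (0.0801) and without HIF1α/2α-ko replicate 1 (0.0739) or 2 (0.0656). Set against HIF2α-ko, HIF1α/2α-ko was at -0.30 (95% interval -0.64 to 0.04, adjusted p = 0.137 from limma), not called. That difference was called with the knockout groups alone and the replicate block (-0.30, adjusted p = 0.0238), after median ratio scaling (-0.56, adjusted p = 0.00241) and after quantile normalization (-0.62, adjusted p = 0.000953). The interaction term of FUNDC1 was -0.44 (adjusted p = 0.174 from limma), and was called after median ratio scaling (-0.51, adjusted p = 0.0480) and quantile normalization (-0.62, adjusted p = 0.0178).

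BCL2L13 (ENSG00000099968, GRCh38 chromosome 22, from 17628855 to 17730855, plus strand, protein-coding), a receptor of the BCL2 family, was the member that rose in the dual knockout. Its TPM was 24.3, 19.9 and 21.9 in vector, 20.3, 22.3 and 21.6 in HIF2α-ko, 21.6, 25.4 and 25.2 in HIF1α-ko, and 28.9, 32.5 and 32.4 in HIF1α/2α-ko. All 3 HIF1α/2α-ko libraries were above the other 9. The log2 fold change from vector was 0.49 (95% interval 0.20 to 0.77, adjusted p = 0.00873 from limma), and 0.28 relative to all genes. The call was lost after median ratio scaling (0.27, adjusted p = 0.0655) and quantile normalization (0.22, adjusted p = 0.116), as was the call against HIF2α-ko (0.53, adjusted p = 0.00577 as deposited). Against HIF1α-ko the difference was 0.37 (95% interval 0.08 to 0.65, adjusted p = 0.0534 from limma), called with the knockout groups alone and the replicate block (adjusted p = 0.00667), without vector replicate 1 (0.0276) and without HIF1α/2α-ko replicate 1 (0.0406). It was also called after median ratio scaling (0.34, adjusted p = 0.0379), with no filter (0.0354), with a filter at a mean TPM of 5 (0.0434) and with the replicate block on all groups (0.0401). After quantile normalization this difference was not called. The changes from vector in the other knockouts were 0.12 (95% interval -0.16 to 0.41) in HIF1α-ko and -0.04 (95% interval -0.32 to 0.24) in HIF2α-ko.

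FKBP8 (ENSG00000105701, GRCh38 chromosome 19, from 18531751 to 18544077, minus strand, protein-coding), an immunophilin-like receptor that also binds BCL2, was the most abundant of the 7 wherever BNIP3 was low. Its TPM was 467, 826 and 699 in vector, 789, 779 and 831 in HIF2α-ko, 591, 565 and 627 in HIF1α-ko, and 479, 478 and 512 in HIF1α/2α-ko. The 3 knockout groups did not overlap with one another, while the vector range spanned nearly all of them because vector replicate 1 was low. From vector the changes were 0.31 (95% interval -0.05 to 0.67) in HIF2α-ko, -0.12 (95% interval -0.48 to 0.24) in HIF1α-ko and -0.40 (95% interval -0.76 to -0.04, adjusted p = 0.0644 from limma) in HIF1α/2α-ko. Without vector replicate 1, the change was called in HIF1α/2α-ko (-0.63, adjusted p = 0.000330) and in HIF1α-ko (-0.36, adjusted p = 0.0151). FKBP8 was lower in HIF1α/2α-ko than in HIF2α-ko by a log2 fold change of -0.71 (95% interval -1.07 to -0.35, adjusted p = 0.00404 from limma), and this call held in all 22 alternatives. HIF1α-ko was below HIF2α-ko by -0.43 (adjusted p = 0.0735 from limma), and HIF1α/2α-ko below HIF1α-ko by -0.28 (adjusted p = 0.233). With the knockout groups alone and the replicate block, these differences were called at an adjusted p of 0.000701 and 0.00398. Both were also called without vector replicate 1 (adjusted p = 0.00414 and 0.0282), and the first without vector replicate 2 (0.0401). The first was called as well after median ratio scaling (-0.68, adjusted p = 0.0354), after quantile normalization (-0.49, adjusted p = 0.0428) and with the 2 groups fitted alone (adjusted p = 0.00782). The interaction term of FKBP8 was -0.59 (95% interval -1.09 to -0.08, adjusted p = 0.0942 from limma), and was called without vector replicate 2 (-0.76, adjusted p = 0.0284).

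PHB2 (ENSG00000215021, GRCh38 chromosome 12, from 6965327 to 6970825, minus strand, protein-coding) was the member that changed in HIF2α-ko. Its TPM was 328, 373 and 459 in vector, 280, 254 and 252 in HIF2α-ko, 363, 295 and 289 in HIF1α-ko, and 379, 357 and 408 in HIF1α/2α-ko. All HIF2α-ko libraries were below all libraries of the other groups. The log2 fold change from vector was -0.55 (95% interval -0.85 to -0.25, adjusted p = 0.0251 from limma), or -0.50 relative to all genes. This call was lost without vector replicate 2 (adjusted p = 0.0571) or 3 (0.110), without HIF2α-ko replicate 2 (0.0898) or 3 (0.0903), after median ratio scaling (0.0933) and with the 2 groups fitted alone (0.0786). In HIF1α-ko the change was -0.29 (95% interval -0.59 to 0.01, adjusted p = 0.139 from limma), and it was called without vector replicate 1 (-0.40, adjusted p = 0.0340).

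In HIF1α/2α-ko, PHB2 differed from vector by a log2 fold change of -0.01 (95% interval -0.31 to 0.29, adjusted p = 0.965 from limma). It was higher there than in HIF2α-ko by 0.54 (95% interval 0.24 to 0.84, adjusted p = 0.00673 from limma), a call lost after median ratio scaling (0.26, adjusted p = 0.257). The interaction term was 0.83 (95% interval 0.40 to 1.25, adjusted p = 0.0120 from limma): the log2 difference in PHB2 was 0.54 for HIF1α/2α-ko against HIF2α-ko, groups whose HIF1A mRNA overlapped, and -0.29 for HIF1α-ko against vector. This term was not called after median ratio scaling (0.75, adjusted p = 0.0555). The replicate block on the knockout groups alone called PHB2 higher in HIF1α/2α-ko (0.28, adjusted p = 0.0298) when set against HIF1α-ko, and higher in HIF1α-ko (0.26, adjusted p = 0.0360) when set against HIF2α-ko. SCARNA12, a small RNA gene, lies within exons of PHB2 on the same strand and covers 9.56% of its exon bases. PHB1, the partner of PHB2 in the prohibitin ring, was at -0.04 in HIF1α/2α-ko (adjusted p = 0.883 from limma), -0.04 in HIF2α-ko (0.916) and -0.18 in HIF1α-ko (0.475), and is named here for that partnership, outside the rule for named genes.

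PINK1 (ENSG00000158828, GRCh38 chromosome 1, from 20633455 to 20651511, plus strand, protein-coding) was not called in any comparison with the 12 libraries fitted together and no block. Its TPM was 122, 117 and 107 in vector, 170, 134 and 132 in HIF2α-ko, 154, 110 and 106 in HIF1α-ko, and 171, 129 and 131 in HIF1α/2α-ko. All libraries of HIF2α-ko and HIF1α/2α-ko were above vector, and replicate 1 was the highest in each of the 4 groups. The changes from vector were 0.32 (95% interval -0.04 to 0.69, adjusted p = 0.243 from limma) in HIF2α-ko, 0.31 (95% interval -0.06 to 0.67, adjusted p = 0.157) in HIF1α/2α-ko and 0.08 (95% interval -0.29 to 0.44) in HIF1α-ko. With the knockout groups alone and the replicate block, PINK1 was lower in HIF1α-ko than in HIF2α-ko (-0.25, adjusted p = 0.0184) and HIF1α/2α-ko lay above HIF1α-ko (0.23, adjusted p = 0.0247). The change in HIF1α/2α-ko was called with the replicate block on all groups (adjusted p = 0.0278). Leaving out replicate 1 of every group, PINK1 was called in HIF1α/2α-ko (0.22, adjusted p = 0.0372) and HIF2α-ko (0.25, adjusted p = 0.0381). PINK1-AS, an antisense gene not in the table, covers 39.4% of the PINK1 exon bases, so without strand the reads of the pair cannot be told apart.

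**Figure D2:**
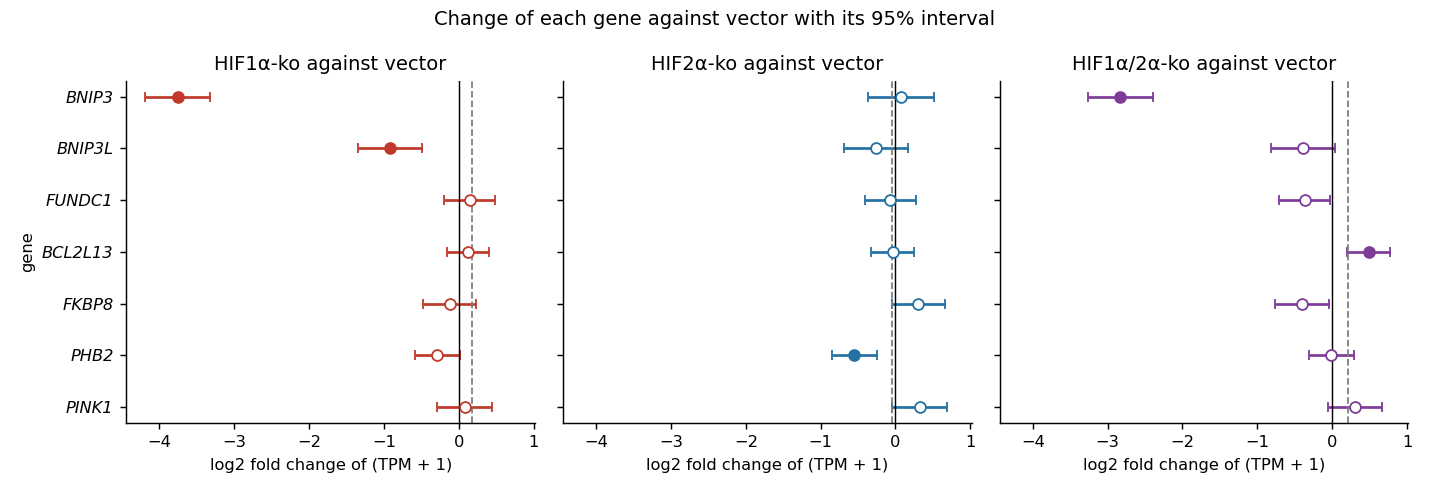
Points are the log2 fold changes of TPM + 1 (horizontal axis) of each gene against vector in the 3 knockouts, bars are 95% confidence intervals from limma, filled points passed an adjusted p under 0.05, and dashed lines are the medians of all genes (0.18, -0.04 and 0.21). BNIP3 stands far to the left in HIF1α-ko (-3.76) and HIF1α/2α-ko (-2.83) and near 0 in HIF2α-ko (0.07).

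Counted over the 7 genes, HIF1α-ko had 0 higher and 2 lower (BNIP3 and BNIP3L), against 17.3% higher and 8.77% lower of all genes tested with limma. At an unadjusted p under 0.05 the counts were the same, 0 higher and 2 lower. HIF2α-ko had 0 higher and 1 lower (PHB2), against 5.07% and 5.89% of all genes, and again 0 and 1 at an unadjusted p. HIF1α/2α-ko had 1 higher (BCL2L13) and 1 lower (BNIP3), against 31.8% and 14.8%, and 1 and 3 at an unadjusted p. Scaling matters for these backgrounds: with median ratio scaling the calls over all genes went from 2031 higher and 1029 lower to 1278 and 1527 in HIF1α-ko, and from 3732 and 1741 to 2854 and 2600 in HIF1α/2α-ko. The members called in HIF1α/2α-ko then numbered 4, namely BNIP3, BNIP3L, FUNDC1 and FKBP8, all lower. Without vector replicate 1, HIF1α-ko had 4 members called, with FKBP8 and PHB2 added, beside 4194 of all genes in place of 3060. Without replicate 1 of every group, an alternative chosen after seeing the data, HIF1α-ko had 5 members called, HIF2α-ko 3 and HIF1α/2α-ko 4, beside 6461, 4283 and 7550 of all genes.

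Between the knockouts, HIF1α/2α-ko against HIF1α-ko had 1 member higher (BNIP3) and 1 lower (FUNDC1), beside 17.7% and 10.6% of all genes, and 3 and 1 at an unadjusted p under 0.05. With the knockout groups alone and the replicate block, all 7 were called there, beside 5684 of all genes in place of 3322. Whether the replicate numbers pair libraries across groups is not known. Leaving out HIF1α-ko replicate 2, HIF1α-ko replicate 3 or HIF1α/2α-ko replicate 2 brought the count without the block to 1. All genes called were then 2566, 2413 and 2324. Leaving out vector replicate 1 brought the count to 4, beside 4072 of all genes. HIF1α/2α-ko against HIF2α-ko had 2 higher (BCL2L13 and PHB2) and 2 lower (BNIP3 and FKBP8), beside 33.5% and 12.9% (3933 and 1509 genes, or 2748 and 2468 with median ratio scaling), and the same at an unadjusted p under 0.05. After median ratio scaling BCL2L13 and PHB2 were no longer called and FUNDC1 was, so that 0 members were higher and 3 lower, and the replicate block on the knockout groups alone called 5 members beside 7339 of all genes. HIF1α-ko against HIF2α-ko had 0 higher and 2 lower (BNIP3 and BNIP3L), beside 17.8% and 7.37% (2084 and 865 genes, or 1032 and 1300 with median ratio scaling), and 0 and 3 at an unadjusted p under 0.05. The replicate block on the knockout groups alone brought the number of members called to 5, beside 5927 of all genes in place of 2949. The interaction term had 1 higher (PHB2) and 0 lower, beside 13.2% and 7.35%, and 4 and 1 at an unadjusted p under 0.05. Median ratio scaling turned this to 0 higher and 1 lower (FUNDC1).

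Among the 7, BNIP3 made most of the difference in the summed level. As mean ± SD (n = 3), the summed TPM was 2307 ± 549 in vector and 2344 ± 44.6 in HIF2α-ko, against 1259 ± 43.2 in HIF1α/2α-ko and 1190 ± 51.2 in HIF1α-ko. Without BNIP3, the other 6 summed to 1288 ± 220 and 1314 ± 46.3 TPM in the first pair of groups, and to 1122 ± 44.6 and 1119 ± 59.6 TPM in the second. BNIP3 supplied 43.4% ± 4.73 of the sum in vector and 44.0% ± 1.74 in HIF2α-ko, but 10.9% ± 0.498 in HIF1α/2α-ko and 6.05% ± 0.965 in HIF1α-ko. In vector the order of the mean levels was BNIP3, FKBP8, PHB2, PINK1, BNIP3L, BCL2L13 and FUNDC1, and the ranges of BNIP3 and FKBP8 overlapped. In HIF2α-ko the order was the same, with no overlap between neighbours. In HIF1α-ko and HIF1α/2α-ko, BNIP3 stood in the fourth place, behind FKBP8, PHB2 and PINK1, and in HIF1α/2α-ko its range overlapped with that of PINK1.

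**Figure D3:**
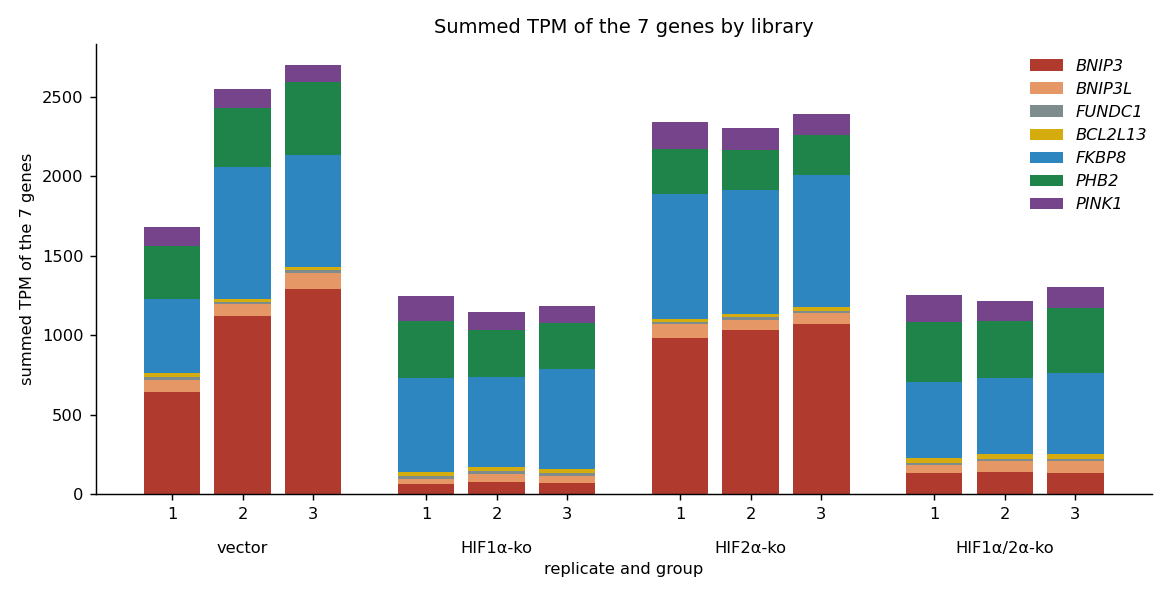
Each bar is 1 library, stacked by gene, with the summed TPM of the 7 genes on the vertical axis from 0 and the replicate number and group on the horizontal axis. The red BNIP3 part makes 38.4% to 47.8% of each vector bar and 5.07% to 6.999% of each HIF1α-ko bar.

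Set beside 25 reference genes of the hypoxia response, BNIP3 was lower than all 25 in HIF1α-ko, where the lowest of these was -2.62 and the median -0.70. In that comparison 0 of the 25 were called higher and 14 lower with limma (2 and 14 at an unadjusted p under 0.05). The 14 are 56%, beside 8.77% of all genes called lower. ENO1, a glycolytic enzyme, was 1556 to 1982 TPM against 6107 to 7593 TPM in vector (-2.03, adjusted p = 2.81e-06). PFKFB4, a regulator of glycolysis, changed by -2.56 (adjusted p = 3.28e-06) and CA9, carbonic anhydrase 9, by -1.85 (adjusted p = 9.58e-05). BNIP3L lay near the middle, with 11 of the 25 below it and 14 above.

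In HIF1α/2α-ko, 1 of the 25 was below BNIP3, the collagen crosslinker LOX, at 77.4 to 135 TPM against 816 to 1140 TPM in vector (-3.22, adjusted p = 7.89e-07 from limma). CA9 changed by -2.45 (adjusted p = 1.52e-06) and the stress-response gene NDRG1 by -1.52 (adjusted p = 1.28e-05). The list had 0 higher and 16 lower there (0 and 17 at an unadjusted p under 0.05). The 16 are 64%, beside 14.8% of all genes called lower, and 19 of the 25 were below BNIP3L. In HIF2α-ko, 5 were higher and 1 lower, or 20% and 4% beside 5.07% and 5.89% of all genes. Those higher included DDIT4 (1.54, adjusted p = 0.00496), ANKRD37 (1.30, adjusted p = 0.00570) and PGK1 (0.78, adjusted p = 0.00596), and BNIP3 was not called. LOX was 793 to 889 TPM in HIF1α-ko, the group in which BNIP3 had its lowest values. Of the 25 genes, 21 had a lower value than BNIP3 for HIF1α/2α-ko against HIF1α-ko.

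The rest of the mitophagy machinery was described with 6 lists of 61 genes, of which 58 passed the filter. NLRX1 and CHDH were among the 3 that did not pass. Of the 58, HIF1α/2α-ko had 28 higher and 2 lower, which is 48.3% and 3.45%, beside 31.8% and 14.8% of all genes tested. HIF1α-ko had 13 higher and 1 lower, or 22.4% and 1.72% beside 17.3% and 8.77%, and HIF2α-ko 2 higher and 3 lower, or 3.45% and 5.17% beside 5.07% and 5.89%. The shares called higher in HIF1α-ko and called in HIF2α-ko were thus near those of all genes. The median change of the 58 was 0.52, 0.22 and 0.03 in that order, beside 0.21, 0.18 and -0.04 over all genes. Median ratio scaling gave 24 higher and 5 lower, 9 and 5, and 2 and 1, beside 2854 and 2600, 1278 and 1527, and 753 and 579 of all genes. The number called in HIF1α-ko ranged from 5 without vector replicate 2 upward, with 6 without vector replicate 3 or HIF1α-ko replicate 3 and 8 without HIF1α-ko replicate 2. All genes called in these fits moved too, to 1814, 1648, 1552 and 1692 in that order, in place of 3060. In HIF2α-ko the number for the lists was 11 without vector replicate 1 or with the replicate block, beside 2497 and 2068 of all genes in place of 1286. It was between 1 and 3 without any other library except HIF1α/2α-ko replicate 1, beside 471 to 1243 of all genes.

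Regulators of the receptors held 10 genes, with 2 higher in HIF1α-ko and 6 higher in HIF1α/2α-ko, where none was lower. In HIF2α-ko 0 were called (0 higher and 2 lower at an unadjusted p under 0.05). The 2 in HIF1α-ko are 20%, near the 17.3% of all genes, and the 6 in HIF1α/2α-ko are 60% beside 31.8%. PGAM5, the phosphatase that acts on FUNDC1, was 33.4 to 36.5 TPM in HIF1α/2α-ko against 3.51 to 5.13 TPM in vector, with a log2 fold change of 2.84 (adjusted p = 1.25e-06 from limma). The other knockouts had at most 7.58 TPM of it. SRC, a kinase that phosphorylates FUNDC1, was 67.9 to 69.4 TPM against 31.4 to 40.8 TPM in vector (0.89, adjusted p = 1.00e-04 from limma). MARCHF5, a mitochondrial ubiquitin ligase that acts on FUNDC1, rose by 1.37 in HIF1α/2α-ko (adjusted p = 0.000952) and 0.85 in HIF1α-ko (adjusted p = 0.0294), and MUL1, another mitochondrial ubiquitin ligase, rose by 0.59 in HIF1α-ko (adjusted p = 0.00868).

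The ATG8 family, to which the receptors bind, had 7 genes. HIF1α-ko had 2 higher and 0 lower, HIF2α-ko 1 and 1, and HIF1α/2α-ko 2 and 1. The last are 28.6% and 14.3%, near the 31.8% and 14.8% of all genes. The 2 in HIF1α-ko are 28.6% beside 17.3%, and those in HIF2α-ko 14.3% each beside 5.07% and 5.89%. GABARAPL2 was 259 to 266 TPM in HIF1α/2α-ko and 223 to 258 TPM in HIF1α-ko against 138 to 193 TPM in vector (0.71, adjusted p = 0.000916, and 0.60, adjusted p = 0.00689). GABARAPL1 was 61.3, 188 and 195 TPM in HIF1α/2α-ko against 21.99 to 60.8 TPM in vector (1.92, adjusted p = 0.0138 from limma). GABARAP was lower in HIF1α/2α-ko (-0.41, adjusted p = 0.0107) and in HIF2α-ko (-0.41, adjusted p = 0.0382). MAP1LC3A, an LC3 gene, was higher in HIF1α-ko (0.92, adjusted p = 0.0147) and in HIF2α-ko (0.84, adjusted p = 0.0399).

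Among the 6 soluble adaptors, which bind ubiquitin on mitochondria instead of spanning the membrane, 0 were called in HIF1α-ko and in HIF2α-ko (0 also at an unadjusted p under 0.05). In HIF1α/2α-ko 2 were higher and 1 lower, or 33.3% and 16.7%, near the 31.8% and 14.8% of all genes. SQSTM1 (p62) was 1632, 3551 and 3570 TPM there against 887 to 1238 TPM in vector (1.34, adjusted p = 0.00435 from limma). TAX1BP1 was also higher (1.05, adjusted p = 0.00328) and CALCOCO2 (NDP52) lower (-0.80, adjusted p = 0.0311). Of the 6 other receptors tested, 0 were called in HIF1α-ko (1 higher at an unadjusted p under 0.05) and in HIF2α-ko (1 lower), and 2 were higher in HIF1α/2α-ko, AMBRA1 (0.92, adjusted p = 0.000339) and MCL1 (0.86, adjusted p = 0.00847). These are 33.3% of the 6, again near the 31.8% of all genes.

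The PINK1 route list has 20 tested genes, which include import channels, proteases, deubiquitinases and substrates of ubiquitination. It had 11 higher and 0 lower in HIF1α/2α-ko, 7 and 1 in HIF1α-ko, and 1 and 1 in HIF2α-ko. As shares these are 55% and 0%, 35% and 5%, and 5% and 5%. Over all genes the shares are 31.8% and 14.8%, 17.3% and 8.77%, and 5.07% and 5.89%. MFN2, an outer-membrane fusion protein, was 35.2 to 42.1 TPM in HIF1α/2α-ko and 22.6 to 24.6 TPM in HIF1α-ko against 14.9 to 15.95 TPM in vector (1.33, adjusted p = 9.24e-06, and 0.60, adjusted p = 0.00527). The import genes TIMM23 (2.12, adjusted p = 8.17e-05) and TOMM22 (1.05, adjusted p = 2.10e-05) rose in HIF1α/2α-ko, and TOMM7, which helps PINK1 stay on the outer membrane, rose in HIF1α-ko (1.22, adjusted p = 0.00182) and HIF2α-ko (0.92, adjusted p = 0.0142). VDAC1, the outer-membrane channel, was the lower gene in HIF1α-ko, at 256 to 276 TPM against 485 to 544 TPM in vector (-0.92, adjusted p = 0.000140), and was 504 to 530 TPM in HIF1α/2α-ko. USP30, a mitochondrial deubiquitinase, was lower in HIF2α-ko (-0.78, adjusted p = 0.0431).

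Fission and fusion held 9 genes, with 2 higher in HIF1α-ko, 1 lower in HIF2α-ko and 5 higher in HIF1α/2α-ko. The 2 in HIF1α-ko are 22.2%, near the 17.3% of all genes called higher. The 1 in HIF2α-ko is 11.1% beside 5.89%, and the 5 in HIF1α/2α-ko are 55.6% beside 31.8%. DNM1L, the fission GTPase, was 7.60 to 14.2 TPM in HIF1α/2α-ko against 3.34 to 5.26 TPM in vector (1.22, adjusted p = 0.000655 from limma). FIS1, an outer-membrane fission protein, rose in HIF1α-ko (0.60, adjusted p = 0.0385) and HIF1α/2α-ko (0.87, adjusted p = 0.00281). MTFR1 rose in the same groups (0.82, adjusted p = 0.0236, and 1.94, adjusted p = 4.63e-05), and MFF, an adaptor of DNM1L, was lower in HIF2α-ko (-0.40, adjusted p = 0.0499).

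Nuclear genes for mitochondrial proteins were also listed, as mRNA levels only, and the amount of mitochondria was not measured in these libraries. Of 13, HIF1α-ko had 4 higher, HIF2α-ko 2 and HIF1α/2α-ko 10, with 0 lower in each. The shares called higher are 30.8%, 15.4% and 76.9%, beside 17.3%, 5.07% and 31.8% of all genes. Under median ratio scaling the counts became 0 higher and 1 lower, 2 and 0, and 8 and 1. The calls in HIF1α-ko thus changed with the scaling. SDHA, a subunit of succinate dehydrogenase, was 200 to 231 TPM in HIF1α/2α-ko and 142 to 157 TPM in HIF1α-ko against 88.7 to 102 TPM in vector (1.14, adjusted p = 1.31e-05, and 0.60, adjusted p = 0.00318). ATP5F1B (0.92, adjusted p = 3.29e-05) and PDHA1 (1.10, adjusted p = 0.000125) were also higher in HIF1α/2α-ko, as were COX4I1 (0.56, adjusted p = 0.00263) in HIF1α-ko and NDUFB8 (0.77, adjusted p = 0.00548) in HIF2α-ko. Of the 13 genes of mitochondrial DNA, 0 were called in each knockout with limma, and 0 at an unadjusted p under 0.05. Their summed share was 0.517% to 3.17% in vector, 1.08% to 2.23% in HIF1α/2α-ko, 0.747% to 1.72% in HIF1α-ko and 0.610% to 0.884% in HIF2α-ko, so the groups overlapped.

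**Figure D4:**
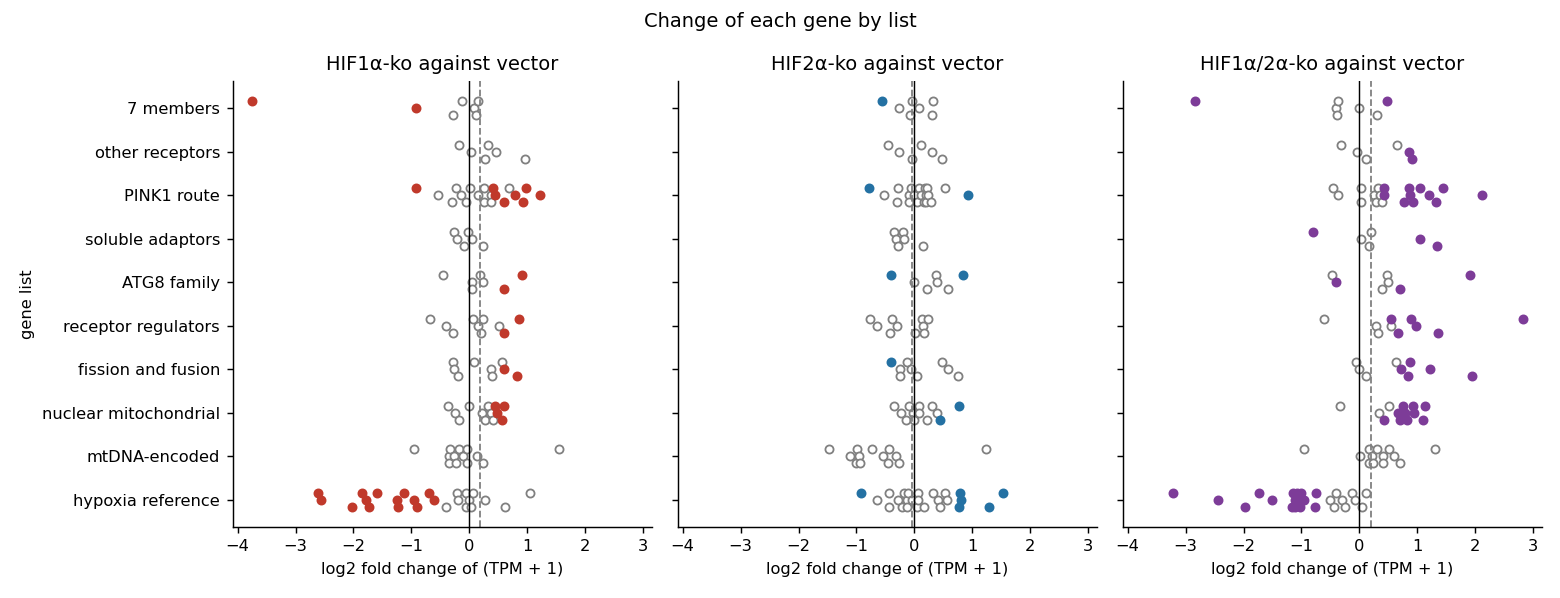
Each point is the log2 fold change of TPM + 1 against vector (horizontal axis) of 1 gene, in rows by list (vertical axis) and panels by knockout, filled where the adjusted p from limma was under 0.05, with dashed lines at the medians of all genes (0.18, -0.04 and 0.21). In HIF1α/2α-ko, 28 of 58 genes of the 6 mitophagy lists are called higher, while BNIP3 at -2.83 and 16 of 25 hypoxia reference genes are called lower. Of all genes tested there, 31.8% are called higher and 14.8% lower.

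The genes whose log2(TPM + 1) was most like that of BNIP3 over the 12 libraries were PRELID2 (Pearson's r 0.986), FUT11 (0.986), TRIP13 (0.984), BHLHE41 (0.980) and CEP250 (0.979). Their mean TPM was much lower than that of BNIP3, for example 19.2 in vector and 4.73 in HIF1α-ko for PRELID2 and 127 and 39.4 for FUT11. For BNIP3L the most like were ZNF160 (0.860), LDHA (0.860), LSM5 (0.858), FOSL1 (0.858) and SGO1 (0.852). LDHA, lactate dehydrogenase A, was the only gene of the 25-gene hypoxia list among these 10. Over that list, r with BNIP3 ranged from -0.307 (VEGFA) to 0.965 (ENO1). EGLN1 (0.963), ERO1A (0.957) and PFKFB4 (0.951) came next to ENO1, not far under the 5 genes most like BNIP3. The most like BCL2L13 was PDHA1 (0.988), with ANXA5 (0.980) and PTP4A2 (0.979), and the most like FUNDC1 were OSMR (0.979), AGTR1 (0.970) and PDE4DIP (0.964). For FKBP8 they were PTGER1 (0.949) and EOLA1 (0.944), for PHB2 UBE2E2 (0.950), RFX1 (0.944) and SNRNP70 (0.938), and for PINK1 ISOC2 (0.924), DYNC2I2 (0.913) and SUN2 (0.909). Among the 7 themselves, r ranged from -0.810 for BCL2L13 and FKBP8 to 0.757 for BNIP3 and BNIP3L. The points of each correlation share 4 groups, and RefSeq names 46 pseudogenes after BNIP3 and 1 after PHB2, none of them in the table, and how reads that match several copies were counted is not given in the sources used here.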

How the data were processed

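Poly(A)-selected mRNA of U87 cells was sequenced in 12 libraries, 3 in each of 4 groups, and the authors deposited TPM values with 1 column per library and no pooling. TPM keeps no sequencing depth. Counting error and detection limits are therefore unknown, and the number of libraries limits the precision. The submitters' processing notes name FastQC 0.11.2, Trimmomatic 0.36, HISAT2 2.0, bedtools 2.26.0 and the build GRCh38, while the counter and the annotation are not given in the sources used here. Groups came from the labels, and the 3 columns whose names carry no knockout code are the vector libraries.

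TPM was transformed to log2(TPM + 1). Genes that reached a TPM of 1 in 3 or more libraries entered 1 model of all 4 groups in limma (3.58.1, R 4.3.3) with the trend option, followed by Benjamini-Hochberg adjustment over all genes within each of 7 contrasts (threshold 0.05, 2-sided). Every adjusted p printed comes from limma. The fit was tested on simulated data. Fold changes carry the pseudocount of 1. Positions come from GENCODE 29. Python 3.11.15 with pandas 2.3.3, numpy 2.4.6 and matplotlib 3.10.9 produced the tables and plots.

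The 7 genes and the gene lists were chosen with earlier results of these data known. Besides the 7 genes, HIF1A and EPAS1, the text names up to 3 genes of each list with the smallest p among those called in each contrast against vector, and the 3 genes most like each member (5 for BNIP3 and BNIP3L) by Pearson's r. Markers, genes that failed the filter and PHB1 are named besides, PHB1 after its value was seen. A few genes that these rules name are not reported here.

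Deviations from the group means correlated between same-numbered libraries of different knockout groups (r 0.196 to 0.508 across genes), and less so between vector and the knockouts (-0.0265 to 0.163). No source says what a number marks. Among the knockout groups r was 0.463 to 0.508 for replicate 1 and 0.196 to 0.250 for replicates 2 and 3. Libraries with different numbers were not compared, and replicate 1 stood apart in every group, so these values cannot show that the numbers pair libraries. Taking the numbers as pairing the knockout groups only is thus an assumption. Blocked values are given beside comparisons between knockouts where they change a call.

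Alternatives were a pseudocount of 0.1, no filter (without genes at 0 in every library), quantile normalization, median ratio scaling, a stricter filter (mean TPM of 5), no trend, a fit of only the 2 groups compared, the replicate block on all groups or on the knockout groups alone, and each library left out in turn. A fit without replicate 1 of every group was chosen after seeing the data.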

Additional observations from a re-analysis of the deposited data

Results flagged for a closer look

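PHB2 had an interaction term of 0.83 on the log2 scale (95% interval 0.40 to 1.25, adjusted p = 0.0120 from limma), so the difference between HIF1α/2α-ko and HIF2α-ko was not the same as that between HIF1α-ko and vector. The term was higher than 0 in every one of the 20 alternatives (0.70 to 1.09), and its adjusted p ranged from 0.00167 to 0.0555. No test of outlying samples was run on these groups of 3 libraries, and the alternatives include fits with each library left out in turn.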

How the results depend on the processing

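Of 1043 values of changes recomputed under alternatives, 932 kept their direction and side of the threshold, 21 lost a call, 61 gained one and 29 turned direction. The calls of BNIP3 in HIF1α-ko (-4.06 to -3.56), HIF1α/2α-ko (-3.13 to -2.63) and HIF1α/2α-ko against HIF1α-ko (0.84 to 1.008) and of BNIP3L in HIF1α-ko (-1.12 to -0.76) held throughout. The values that turned direction were not called before or after. Beside the blocked values given with the members, the replicate block changed no other call of the 7. The cause of a change was not tested, and depth sets no limit that can be stated, since TPM keeps none.

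Median ratio scaling turned FUNDC1 (-0.045), PINK1 (-0.12) and BCL2L13 (-0.071) in HIF1α-ko, BCL2L13 in HIF2α-ko (0.0087), and FUNDC1 (-0.023) and BCL2L13 (-0.079) in HIF1α-ko against HIF2α-ko. Quantile normalization turned FUNDC1 in HIF1α-ko (-0.00065) and BCL2L13 in HIF2α-ko (0.00097). Without replicate 1 of every group, PINK1 in HIF1α-ko was -0.051, BNIP3, FUNDC1 and BCL2L13 in HIF2α-ko were -0.19, 0.11 and 0.068, BNIP3L in HIF1α/2α-ko against HIF2α-ko was 0.16, and the interaction term of PINK1 was 0.019.

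Members called under median ratio scaling were 4 in HIF1α/2α-ko and 0 in HIF2α-ko, beside 5454 and 1332 of all genes. In HIF2α-ko the fit of 2 groups also called 0 of the 7, and 474 of all genes in place of 1286. The interaction term had 2 members with quantile normalization, with the filter at a mean TPM of 5 and with the replicate block, in place of 1. All genes called there were 2662, 1972 (of 8011 tested) and 3240, in place of 2414. The block over all groups gave 2068 genes in HIF2α-ko. The block on the knockout groups alone gave 7 members and 5684 genes in HIF1α/2α-ko against HIF1α-ko, and 5 and 5927 (in place of 2949) in HIF1α-ko against HIF2α-ko. Of the 6 mitophagy lists, the calls in HIF2α-ko numbered 3 with median ratio scaling and without the trend, 1 with 2 groups and 11 with the block, in place of 5. Without replicate 1 of every group, 5 members were called in HIF1α-ko, 3 in HIF2α-ko, 4 in HIF1α/2α-ko, 6 in HIF1α/2α-ko against HIF1α-ko and 4 in the interaction term. All genes called were then 6461 in HIF1α-ko, 4283 in HIF2α-ko, 5276 in HIF1α/2α-ko against HIF1α-ko, 5521 in HIF1α-ko against HIF2α-ko and 5040 in the interaction term, and the 6 lists had 29 in HIF1α-ko and 18 in HIF2α-ko.

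With each library left out in turn, FKBP8 in HIF1α-ko ranged from -0.36 to 0.056, PINK1 in HIF1α-ko from -0.091 to 0.18, BNIP3 in HIF2α-ko from -0.22 to 0.27, FUNDC1 in HIF2α-ko from -0.16 to 0.033, BCL2L13 in HIF2α-ko from -0.11 to 0.032 and PHB2 in HIF1α/2α-ko from -0.12 to 0.12. Against HIF2α-ko, BNIP3L in HIF1α/2α-ko ranged from -0.23 to 0.033 and PINK1 from -0.15 to 0.099, and the interaction term of PINK1 from -0.22 to 0.074. Members called ranged from 2 to 4 in HIF1α-ko, 0 to 1 in HIF2α-ko, 1 to 4 in HIF1α/2α-ko against HIF1α-ko, 1 to 3 in HIF1α-ko against HIF2α-ko and 1 to 3 in the interaction term. All genes called ranged from 1552 to 4194 in HIF1α-ko, 471 to 2497 in HIF2α-ko and 2310 to 4072 in HIF1α/2α-ko against HIF1α-ko. The range was 1451 to 3746 in HIF1α-ko against HIF2α-ko and 1542 to 3564 in the interaction term. The highest number each time was without vector replicate 1. The 6 lists had 5 to 17 in HIF1α-ko and 1 to 11 in HIF2α-ko.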
